A study of Homo sapiens with 6 samples.

Results

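The TRIM (tripartite motif) genes encode one of the largest families of ubiquitin ligases, and their RNA was compared between PRMT6-silenced and control U87 cells. Members were taken by name, as every gene whose symbol is TRIM followed by a number, with an L where the symbol has one, and only where the annotation lists it as protein-coding. This gave 68 members among 60612 genes in the table. All 68 were listed as protein-coding in GENCODE 29, and 67 were so listed by RefSeq, which gives TRIM16L as a transcribed pseudogene. The U87 line, established from a human glioblastoma, was used throughout. Both groups carried a lentiviral shRNA, introduced with polybrene, so the controls differed from the knockdown in the sequence of the hairpin. NC denotes the 3 libraries from cells with a scramble shRNA, and shPRMT6 the 3 libraries in which the hairpin targeted PRMT6, an arginine methyltransferase. The methods call the 3 samples of each group independent replicates, and the hairpin sequenced is not named. Library numbers were taken as replicate numbers in both groups. The shPRMT6 libraries are also labelled shRNA with a number, and the study lists 3 hairpins. The labels do not say whether that number is of a replicate or of a hairpin.

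A typical TRIM protein starts with a RING domain, which recruits a ubiquitin-loaded E2 enzyme, followed by B-box and coiled-coil domains through which the proteins pair. The C-terminal domain, which differs between classes, selects the substrate. Many members are induced by interferon and act in antiviral defence, whereas others act on chromatin, the cytoskeleton or protein quality control. A few members lack the RING and are not expected to act as RING ligases on their own.

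Total counts ran from 56388161 to 75887696 per library, and 3 counts correspond to 0.0395 to 0.0532 CPM (counts per 1000000 counts of the library). The targeted gene was reduced but not lost. PRMT6 stood at 9.33, 7.97 and 7.19 CPM in NC libraries 1, 2 and 3 and at 3.56, 4.58 and 5.24 CPM in the shPRMT6 libraries, a mean level of 54.7% of NC (log2 fold change -0.87, SE 0.187, adjusted p = 0.0225 in edgeR's quasi-likelihood test). This call was lost when NC library 1 (adjusted p = 0.0613), shPRMT6 library 1 (0.0588) or shPRMT6 library 2 (0.0713) was left out of the edgeR fit. Of the markers of the line, VIM, CD44, FN1 and TNC were at 455 CPM or more in every library, whereas CHI3L1 was at 2.71 to 12.2 CPM. Of the 6 markers in this list, 4 were called (66.7%, where 18.6% of all genes tested were). Of these, 3 fell, FN1 (log2 fold change -0.72, adjusted p = 0.00246) and TNC (-0.35, adjusted p = 0.00585) among them, and CHI3L1 rose (1.62, adjusted p = 0.00294) in edgeR's quasi-likelihood test. CDKN2A and CDKN2B, deleted in U87, were at or below 0.0628 CPM, and MTAP, the third gene listed for that deletion, was at 0.162 to 0.434 CPM. Among markers of neural lineages, OLIG2 was at 2.14 to 3.20 CPM, GFAP, SOX2 and RBFOX3 at or below 0.885 CPM and SOX10 at 0, and none was called. Of the leukocyte and endothelial markers, AIF1 was at 0, PTPRC at or below 0.065 CPM and VWF at or below 0.738 CPM, while CD68, which is not limited to leukocytes, reached 316 CPM. In bulk RNA, fewer cells that express a gene and less RNA per cell cannot be told apart.

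Of the 68 members, 46 passed the filter on low counts and were tested. Of the other 22, 16 had no count in any library, and the remaining 6 reached at most 37 counts in a library. Levels between genes were compared per length, in the FPKM values the authors deposited, as a description without a test. TRIM28 (KAP1), the corepressor that KRAB zinc finger proteins bring to chromatin, had the highest level, with a mean FPKM of 58.5 ± 4.55 in NC and 39.5 ± 1.16 in shPRMT6 (SD, n = 3 each, as for all means here). Next came TRIM21, the cytosolic antibody receptor, at 9.49 ± 0.706 and 11.7 ± 1.46 FPKM, and TRIM44, which has no RING, at 10.6 ± 1.00 and 9.41 ± 0.258 FPKM. Neither was called (log2 fold change 0.29 and -0.18, adjusted p = 0.159 and 0.171 in edgeR). TRIM65, TRIM37, TRIM26, TRIM32 and TRIM25 followed. Their NC means ran from 5.37 FPKM in TRIM32 to 8.02 FPKM in TRIM25. The order among these 5 members was not separated by the spread of the libraries, since TRIM26 (NC SD 2.73) and TRIM32 (NC SD 3.64) alone spanned it. In all, 40 tested members had a mean of at least 1 FPKM and 2 a mean of at least 10 FPKM. The 5 members at the bottom, TRIM55, TRIM74, TRIM54, TRIM31 and TRIM7, had NC means between 0.0254 and 0.0863 FPKM.

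**Figure D1:**
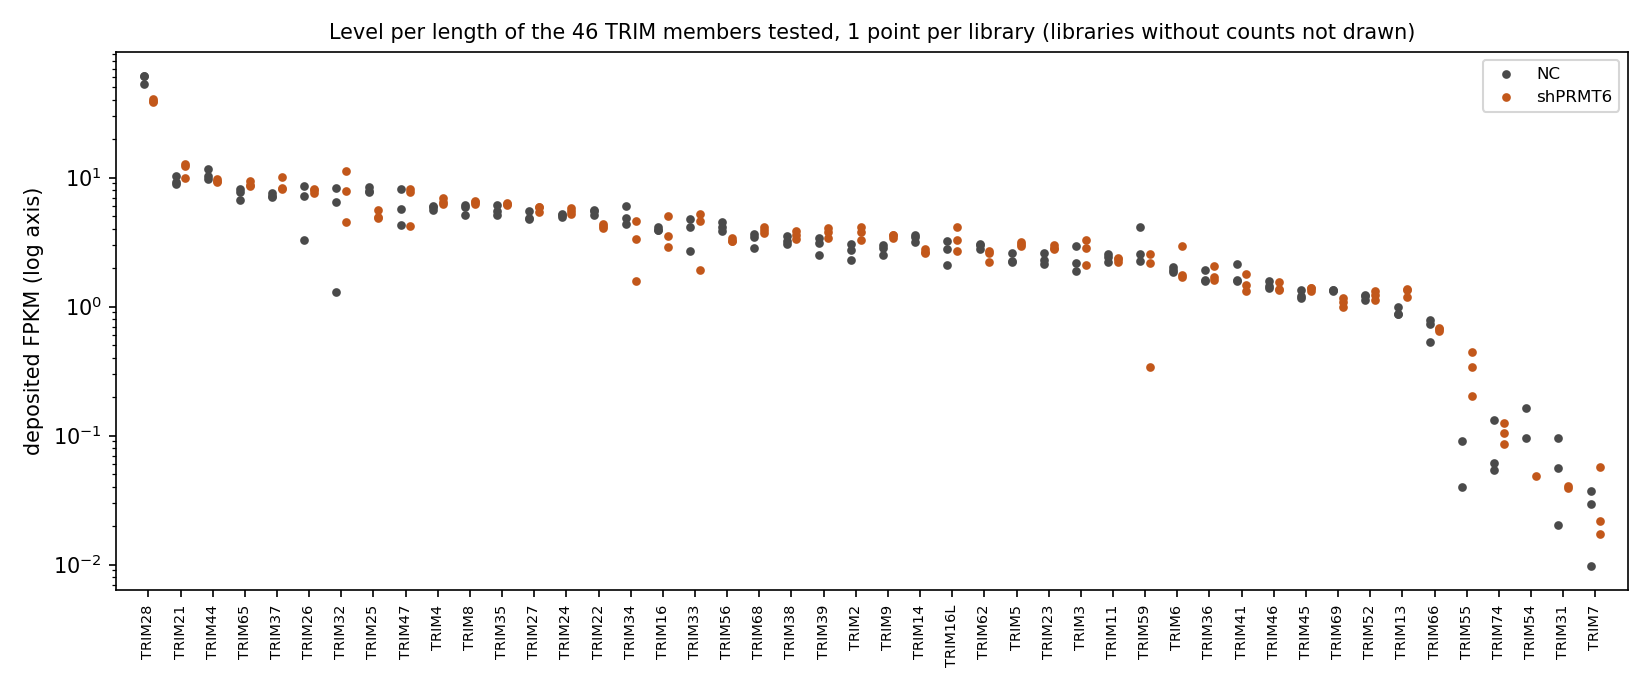
Deposited FPKM (log axis) of the 46 TRIM members tested, ordered by their mean over 6 libraries, with 1 point per library (grey NC, orange shPRMT6). TRIM28 stands apart at the top, most members lie between 1 and 10 FPKM, and single low points mark NC library 2 of TRIM32 and shPRMT6 library 2 of TRIM59.

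PRMT6 knockdown changed 7 of the 46 members tested (15.2%), where 18.6% of the 18106 genes tested were called, at an adjusted p under 0.05. Calls came from edgeR's quasi-likelihood test, with p-values adjusted after Benjamini and Hochberg over all genes tested. TRIM25, TRIM28, TRIM22, TRIM56 and TRIM14 fell, 5 members against a background of 9.06% of genes called lower. TRIM13 and TRIM9 rose, 2 members against a background of 9.51% called higher. The share of members called was thus near that of all genes, and the difference was not tested. Both counts depended on the setting. DESeq2 called 13 members and 5782 genes, and the edgeR fits with a library left out called 2 to 7 members and 1755 to 3183 genes. The median log2 fold change was 0.14 over the members tested and -0.01 over all genes tested, with 29 members above 0 and 17 below. The libraries of the 2 groups did not overlap in 20 members (43.5%), of which 8 were lower and 12 higher in shPRMT6, while 40.2% of all genes did not overlap. At an unadjusted p under 0.05, 13 of the 46 members and 5905 of the 18106 genes passed.

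TRIM25, a RING ligase of the SPRY class that ubiquitinates the RNA sensor RIG-I, gave the smallest p of the family. Its level was 88.5, 94.8 and 88.1 CPM in NC libraries 1, 2 and 3, and 54.6, 55.3 and 62.7 CPM in the shPRMT6 libraries. Every shPRMT6 library lay below every NC library. The mean went from 90.5 ± 3.76 to 57.5 ± 4.52 CPM, or 63.6% of NC (log2 fold change -0.65, SE 0.0779, adjusted p = 0.00312 in edgeR's quasi-likelihood test). The gene lies at chr17:56836387-56914080 on the minus strand of GRCh38, and 4.90% of its 75-base exon stretches also occur in another gene, mostly in an antisense gene without counts. The call held in all 6 edgeR fits with 1 library left out, with adjusted p from 0.00886 to 0.0200.

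TRIM28 stood at 314, 272 and 310 CPM in the NC libraries and at 207, 202 and 194 CPM in the shPRMT6 libraries. The groups were separate, and the NC libraries varied more than the shPRMT6 libraries (299 ± 23.3 against 201 ± 6.18 CPM). The mean level was 67.2% of NC (log2 fold change -0.57, SE 0.0717, adjusted p = 0.00364 in edgeR's quasi-likelihood test). TRIM28 lies at chr19:58544091-58550722 on the plus strand, and none of its stretches is found in another gene. This call, too, held in all 6 fits with 1 library left out (adjusted p 0.00300 to 0.0231 in edgeR). TRIM25 and TRIM28 were the only members called in all 6.

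TRIM22, an interferon-inducible antiviral ligase next to TRIM5 on chromosome 11, had 36.4, 39.6 and 38.4 CPM in NC and 28.8, 29.9 and 30.7 CPM in shPRMT6. It fell to 78.1% of NC (log2 fold change -0.36, SE 0.0738, adjusted p = 0.0200 in edgeR's quasi-likelihood test). The groups did not overlap, although the gap between the highest shPRMT6 and the lowest NC library was small beside the level. With 1 library left out, its edgeR call held in 2 of 6 fits (adjusted p 0.0302 to 0.0786).

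TRIM56, a ligase with no further C-terminal domain that takes part in sensing of cytosolic DNA and RNA, had 55.5, 51.2 and 59.5 CPM in NC and 42.7, 45.1 and 42.5 CPM in shPRMT6. Its mean level was 78.4% of NC (log2 fold change -0.35, SE 0.0790, adjusted p = 0.0263 in edgeR's quasi-likelihood test). The groups were separate, and the edgeR call held in 1 of 6 fits with a library left out, the one without NC library 2 (adjusted p 0.0192 to 0.0923 over the 6).

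TRIM14, which lacks a RING and acts as an adaptor of the mitochondrial signalling protein MAVS, had 21, 22.7 and 23.1 CPM in NC and 17, 17.2 and 18.2 CPM in shPRMT6. Its level was 78.5% of NC (log2 fold change -0.35, SE 0.0851, adjusted p = 0.0341 in edgeR's quasi-likelihood test). The groups did not overlap, and the call held in 1 of 6 edgeR fits with a library left out, the one without NC library 1 (adjusted p 0.0427 to 0.118 over the 6). TRIM14 shares 6.26% of its stretches with NANS on the opposite strand. NANS had 3968 to 4576 counts in NC and 4916 to 5141 in shPRMT6 and was not called (log2 fold change 0.26, adjusted p = 0.0863 in edgeR), so its fold lay on the other side of 0 from that of TRIM14. The library kit named in the labels does not mark strand and the strand setting is not given. Reads from the shared bases may therefore not be told apart.

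TRIM13, a ligase anchored in the endoplasmic reticulum with a role in protein degradation there, had 8.56, 9.48 and 8.39 CPM in NC and 11.4, 12.8 and 13.0 CPM in shPRMT6. It rose to 141% of NC (log2 fold change 0.49, SE 0.110, adjusted p = 0.0257 in edgeR's quasi-likelihood test), with no overlap between groups. The edgeR call held in 2 of 6 fits with a library left out, those without NC library 2 or shPRMT6 library 1 (adjusted p 0.0334 to 0.0908 over the 6). TRIM13 lies inside DLEU2, a noncoding gene on the opposite strand of chromosome 13 with which it shares 4.28% of its exon bases. DLEU2 moved the other way, from 411, 522 and 562 counts in NC to 180, 177 and 217 counts in shPRMT6 (log2 fold change -1.38, SE 0.156, adjusted p = 0.00256 in edgeR). KCNRG, on the same strand, shares 13.4% of the exon bases of TRIM13 and had at most 18 counts in a library.

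TRIM9, a ligase known mainly from neurons, where it acts in netrin-guided axon growth, had 27.2, 30.4 and 31.6 CPM in NC and 35.7, 37.7 and 37.8 CPM in shPRMT6. It rose to 125% of NC (log2 fold change 0.32, SE 0.0849, adjusted p = 0.0457 in edgeR's quasi-likelihood test), and the groups were separate. The edgeR call held in none of the 6 fits with a library left out (adjusted p 0.0700 to 0.139).

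**Figure D2:**
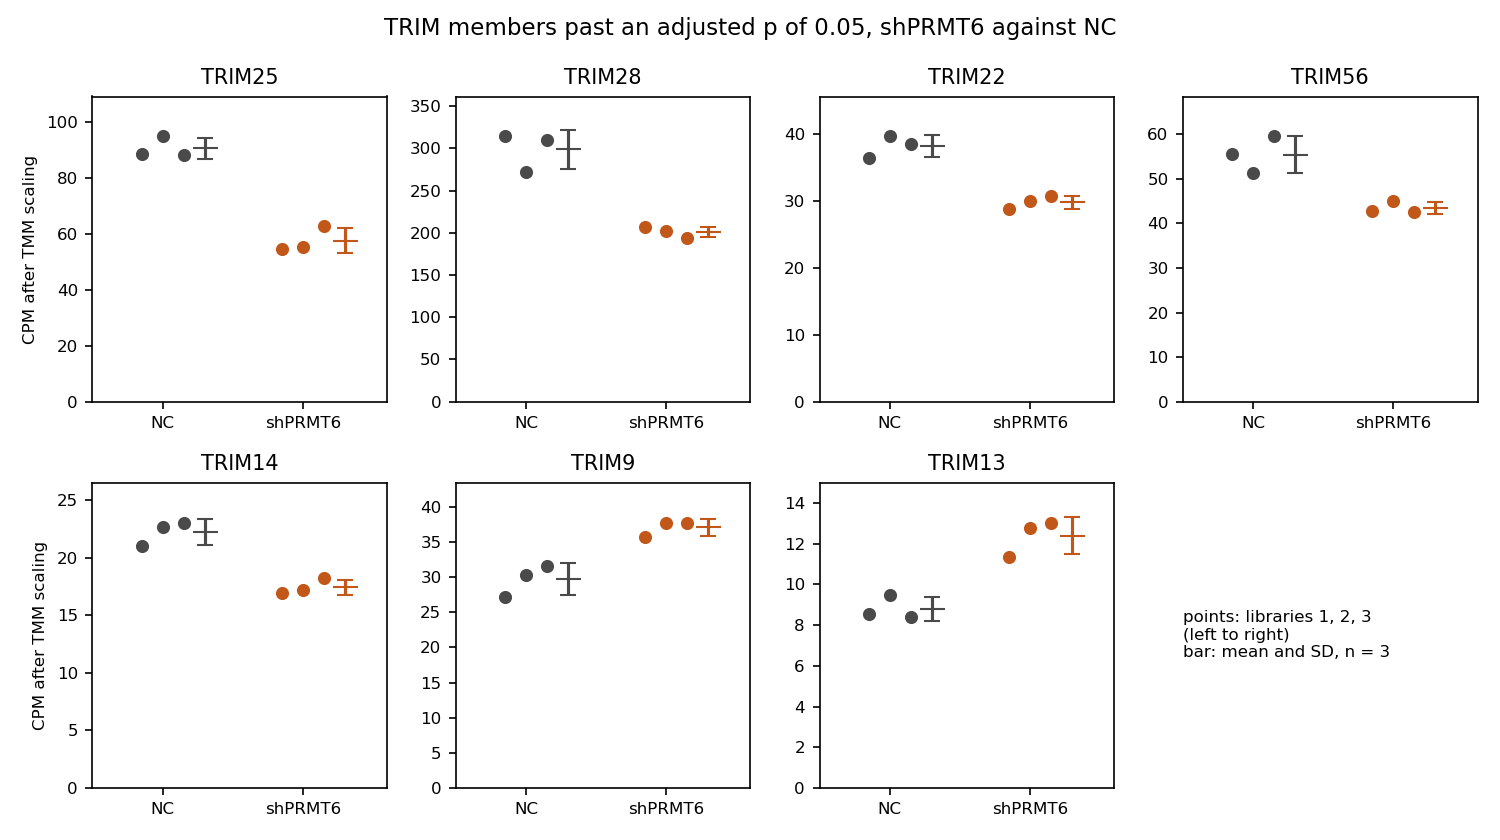
CPM after TMM scaling of the 7 called TRIM members, with points for the libraries and a bar for mean and SD (n = 3), each axis starting at 0. In all 7 panels the NC and shPRMT6 libraries do not overlap, with the widest gaps in TRIM25 (88.1 or more against 62.7 or less) and TRIM28 (272 or more against 207 or less).

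Several members fell just outside the threshold. TRIM2, an NHL-repeat ligase of neurofilament light chain, had 45.1, 59.2 and 52.1 CPM in NC and 62.8, 72.5 and 78.6 CPM in shPRMT6 (log2 fold change 0.45, SE 0.127, adjusted p = 0.0531 in edgeR). TRIM5, the restriction factor that binds retroviral capsids, had 14.1, 16.1 and 13.5 CPM in NC and 18.0, 18.6 and 19.4 CPM in shPRMT6 (log2 fold change 0.36, SE 0.102, adjusted p = 0.0542 in edgeR). Both were separate between groups and passed the edgeR threshold when NC library 2 was left out (adjusted p = 0.0361 for TRIM2 and 0.0311 for TRIM5). TRIM69 lay on the other side, at 15, 14.9 and 14.4 CPM in NC and 12.7, 11.8 and 10.9 CPM in shPRMT6 (log2 fold change -0.32, adjusted p = 0.0671 in edgeR). TRIM5 and TRIM22 are neighbours whose gene bodies overlap on opposite strands without shared exon bases, and their fold changes had opposite signs.

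TRIM55 (MuRF2), a ligase of the muscle sarcomere, had the largest positive fold change of the family at a very low level. Its counts were 19, 12 and 0 in NC and 104, 46 and 84 in shPRMT6, with no overlap (log2 fold change 2.87, SE 0.975, adjusted p = 0.0913 in edgeR's quasi-likelihood test). Its mean level in shPRMT6 was 0.328 ± 0.12 FPKM. The rule of the study's methods was read here as an absolute log2 fold change above 1 with an unadjusted p under 0.05. By this rule TRIM55 was the only member of the 46 tested that passed, among 1072 of the 18106 genes tested. The 2 other members with a fold of that size, TRIM54 (log2 fold change -2.32, SE 1.75) and TRIM31 (-1.06, SE 1.12), were under 40 counts in every library, and their groups overlapped.

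**Figure D3:**
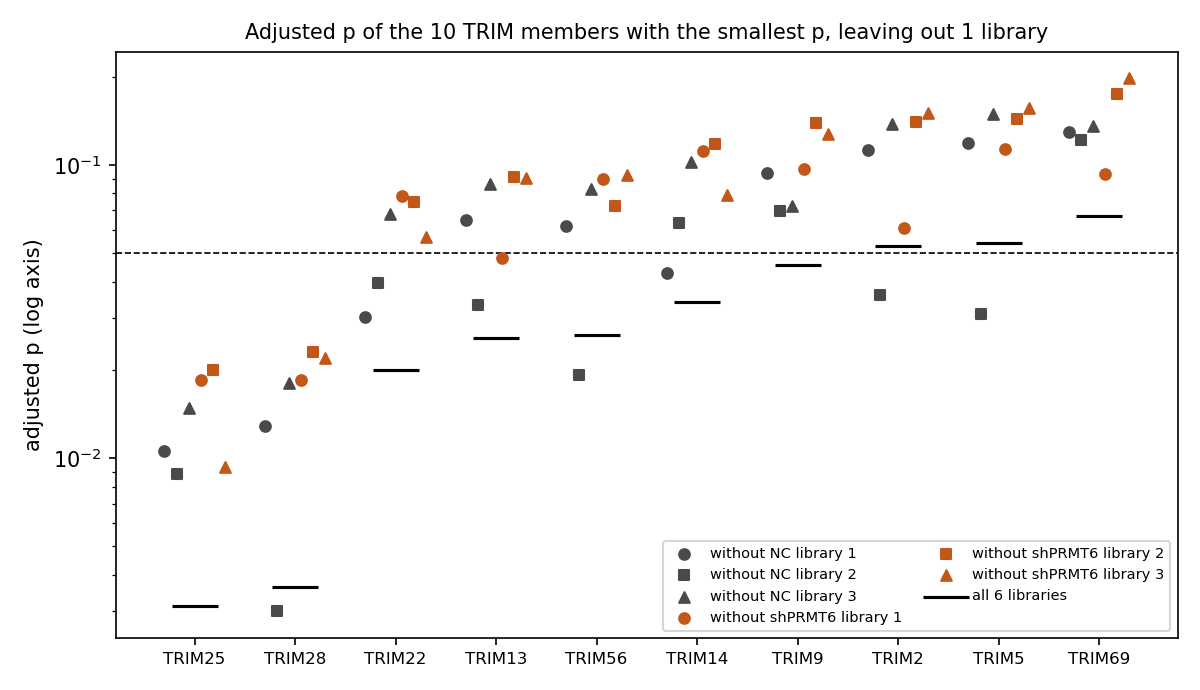
Adjusted p (log axis) of the 10 TRIM members with the smallest p in edgeR's quasi-likelihood test, with all 6 libraries (bar) and with each library left out (points), and a dashed line at 0.05. All points of TRIM25 and TRIM28 lie below the line, whereas TRIM22, TRIM13, TRIM56, TRIM14 and TRIM9 have points above it.

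The members were grouped by C-terminal domain. In the RING-SPRY class, the largest, 20 of 34 members were tested and 2 fell, TRIM25 and TRIM22, with none called higher. These 2 are 10.0% of the class, near the 9.06% of all genes called lower. The class median of the log2 fold change was 0.15, and 13 of its 20 fold changes were above 0. Each other class had at most 5 members tested, and over all genes tested 18.6% were called. Of the members without a RING, 4 were tested and TRIM14 alone was called. In the class with no further C-terminal domain, TRIM56 alone was called of 5 tested, and in the COS-FN3-SPRY class TRIM9 alone of 3. In the group of MATH, ARF or transmembrane members, TRIM13 alone was called of 4, beside TRIM37 (log2 fold change 0.27, adjusted p = 0.103 in edgeR) and TRIM23 (0.29, adjusted p = 0.107 in edgeR). The group of other members with a COS box had 2 of 4 members tested and none called, at an unadjusted p under 0.05 in TRIM55 alone.

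The PHD-bromodomain class holds the TIF1 chromatin regulators, and here TRIM28 stood alone. TRIM24 had 55.6, 58.0 and 55.8 CPM in NC and 60.9, 57.1 and 63.2 CPM in shPRMT6 (log2 fold change 0.10, SE 0.0665, adjusted p = 0.371 in edgeR). TRIM66 was lower in level and close in both groups (9.55 ± 1.85 and 9.29 ± 0.206 CPM, adjusted p = 0.887 in edgeR). TRIM33, a regulator of SMAD4, varied most among its replicates, with 30.9, 54.2 and 46.9 CPM in NC and 21.6, 52.4 and 58.9 CPM in shPRMT6 (log2 fold change 0.01, SE 0.385). The 3 TIF1 members other than TRIM28 overlapped between groups, and the sign of the TRIM33 and TRIM66 fold changes depended on the setting.

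All 4 tested members of the NHL or filamin class had fold changes above 0, with a median of 0.34, and none was called. Beside TRIM2, TRIM32 had a log2 fold change of 0.54 with an SE of 0.647, TRIM3 of 0.22 with an SE of 0.220 and TRIM45 of 0.14 with an SE of 0.116. The groups of TRIM32, TRIM3 and TRIM45 overlapped. TRIM71, the remaining member, had no counts.

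**Figure D4:**
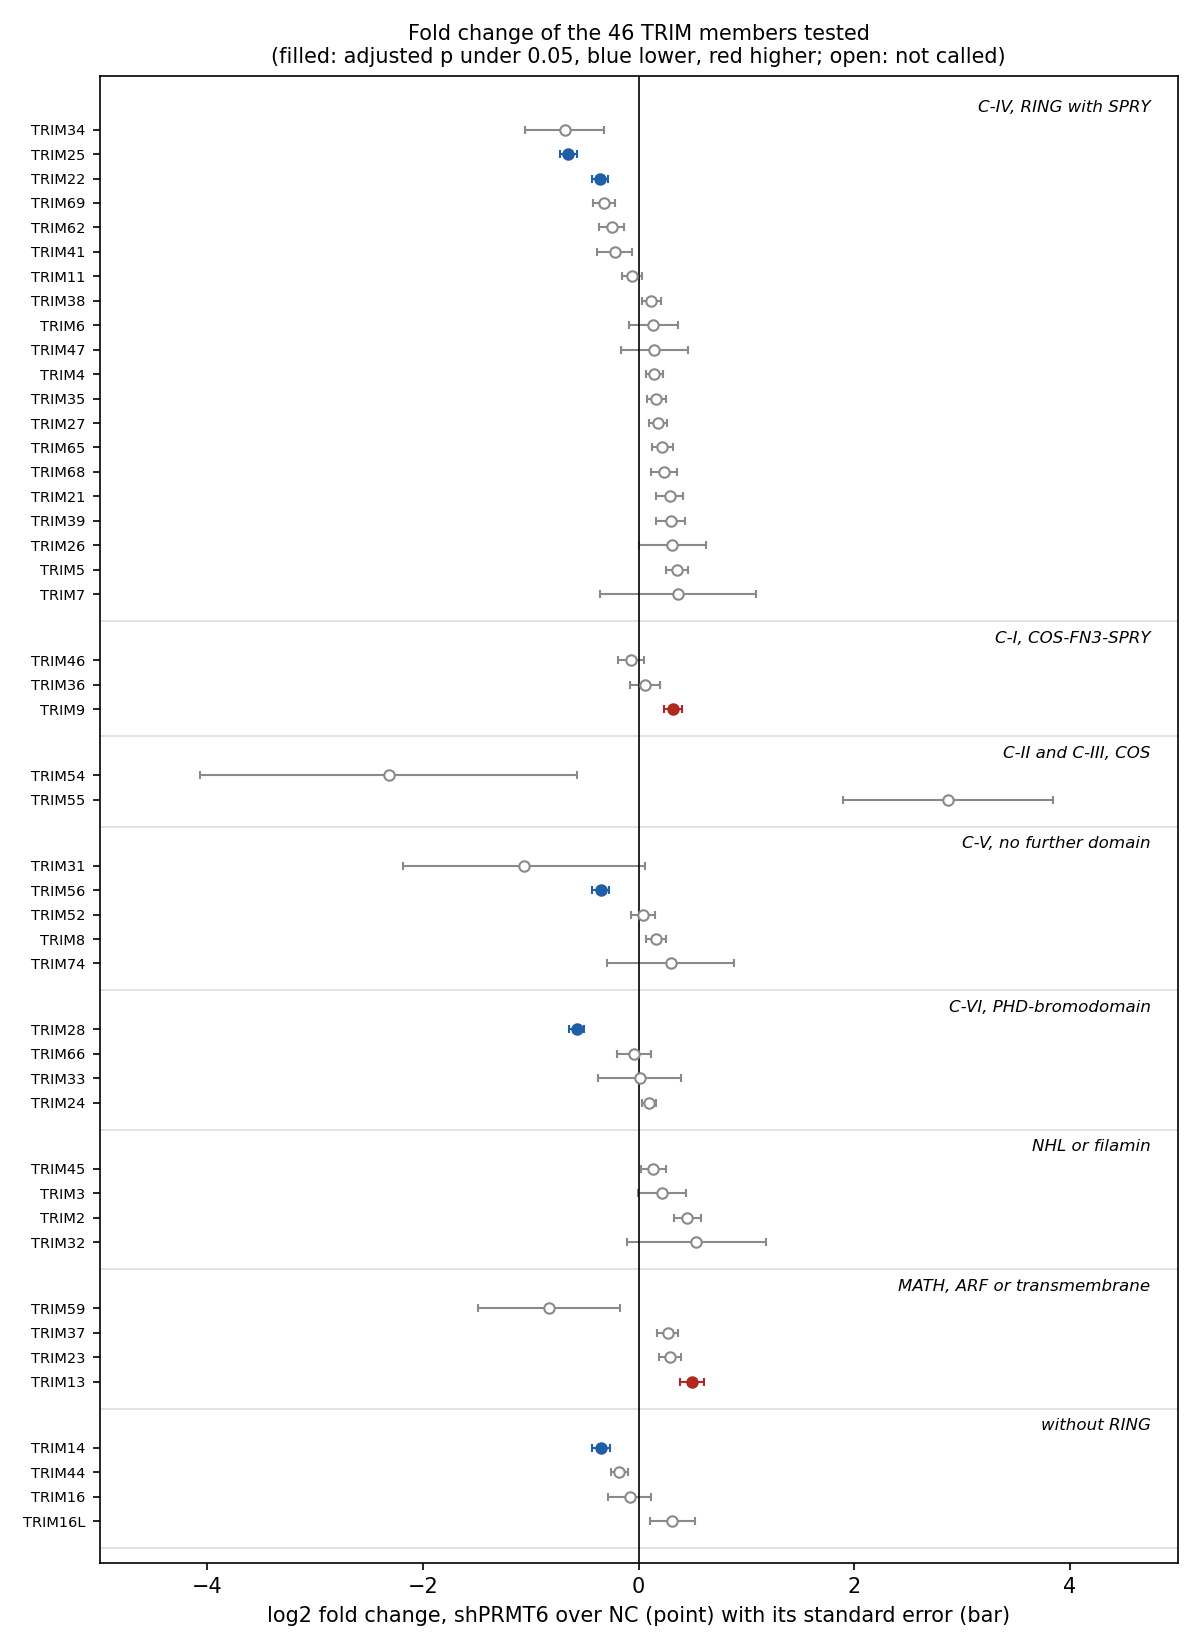
Log2 fold change of shPRMT6 over NC (point) with its standard error (bar) for the 46 TRIM members tested, grouped by C-terminal class, with filled points for an adjusted p under 0.05 (blue lower, red higher). The 7 called members lie between -0.65 and 0.49, and the widest bars belong to TRIM54 and TRIM55, which had few counts.

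Interferon-inducible members gave 4 of the 5 falls. All 11 members of this list were tested, and TRIM25, TRIM22, TRIM56 and TRIM14 were lower (36.4% of the list, where 9.06% of all genes were called lower) while none was called higher (median log2 fold change -0.32). The list was drawn up with these results known. The rest did not share that side of 0. TRIM5, TRIM21, TRIM26, TRIM38 and TRIM6 had fold changes above 0 (0.12 to 0.36), and TRIM34 and TRIM69 below 0. TRIM21 had 23.9, 21.1 and 20.4 CPM in NC and 29.1, 28 and 22.8 CPM in shPRMT6, and its groups overlapped (adjusted p = 0.159 in edgeR). TRIM26 was at 17.4 CPM in NC library 1 and at 37.3 to 44.2 CPM in the other libraries.

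The promoters were searched on both strands for the interferon-stimulated response element, written as a pair of GAAA half-sites with 2 bases between them. A match was found in 9 of 53 members in the RefSeq promoter table (17%), against 3.57% of 35116 promoters of the same length, 250 bases before to 50 after the start. Of the 10 interferon-inducible members in this table, 6 held it. Of the 4 called members in it, TRIM14 alone did, and TRIM25, TRIM56 and TRIM9 had no match in this window. The 150 bases before the start are shown for TRIM14, TRIM5, TRIM69 and TRIM34, to set a promoter of a member that fell beside 3 of interferon-inducible members that were not called. Each is from RefSeq (GRCh38.p14), 5′ to 3′ on the strand of the gene, with the match in capitals. They lie at chr9:98119223-98119372 (minus strand), chr11:5685075-5685224 (minus), chr15:44736378-44736527 (plus) and chr11:5624851-5625000 (plus).
TRIM14: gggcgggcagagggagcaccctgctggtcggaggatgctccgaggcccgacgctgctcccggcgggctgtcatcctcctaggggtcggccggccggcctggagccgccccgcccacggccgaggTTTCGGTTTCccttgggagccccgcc
TRIM5: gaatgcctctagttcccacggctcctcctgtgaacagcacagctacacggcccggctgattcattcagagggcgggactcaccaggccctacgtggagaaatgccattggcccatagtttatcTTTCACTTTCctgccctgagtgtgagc
TRIM69: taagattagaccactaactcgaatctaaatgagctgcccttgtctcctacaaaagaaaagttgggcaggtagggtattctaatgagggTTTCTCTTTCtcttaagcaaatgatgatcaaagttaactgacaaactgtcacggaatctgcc
TRIM34: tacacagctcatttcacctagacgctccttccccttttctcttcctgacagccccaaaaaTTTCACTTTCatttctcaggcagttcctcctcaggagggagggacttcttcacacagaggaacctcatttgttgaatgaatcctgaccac

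In all 4 the match reads with TTTC half-sites, the reverse complement of the searched letters. In TRIM14 and TRIM5 it starts 26 and 27 bases before the start used in the RefSeq promoter table, in TRIM69 62 and in TRIM34 90 bases before it. For TRIM5, TRIM69 and TRIM34 that start lies inside the gene as GENCODE 29 draws it. TRIM14 fell, whereas the fold changes of TRIM5 (above 0), TRIM69 and TRIM34 (below 0) did not pass the test, so TRIM14 alone of these 4 was called. The shares of the other motifs searched lay nearer to each other. CCAAT was found in 41.5% of members and 34.6% of all promoters, the GC box GGGCGG in 47.2% and 45.0%, the GAS site TTCNNNGAA in 13.2% and 7.66%, and the E-box CACGTG in 5.66% and 7.26%. A match is a run of letters in this window, and binding was not measured.

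The genes that work with these members moved in both directions. Among 12 interferon-stimulated genes, 3 were called, where 18.6% of all genes were, and the difference was not tested. IFIT2 (log2 fold change 0.69, adjusted p = 0.00247) and IFIT1 (0.44, adjusted p = 0.0281) rose and IRF1 fell (-1.10, adjusted p = 0.0090) in edgeR's quasi-likelihood test. The other 9 were not called, ISG15 (0.07) and MX1 (-0.89, under 1 CPM) among them, so the falls of TRIM25, TRIM22, TRIM56 and TRIM14 stood beside rises of IFIT1 and IFIT2. Of 13 tested genes of RNA and DNA sensing, 3 were called (23.1%, against the same 18.6%). RIGI, the gene of the sensor that TRIM25 ubiquitinates, rose from 18.3 ± 0.592 to 30.8 ± 0.364 CPM (log2 fold change 0.75, adjusted p = 0.00187 in edgeR). TBK1 rose (0.38, adjusted p = 0.0448) and IKBKE fell (-0.37, adjusted p = 0.0464) in the same edgeR fit, while MAVS, the partner of TRIM14, was not called (-0.14). STING1, a partner of TRIM56, was near 1 to 2 CPM (log2 fold change -0.85, adjusted p = 0.0713 in edgeR). RIGI, IFIT2 and IRF1 were called in all 6 edgeR fits with a library left out, IFIT1 and IKBKE in none.

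Of 13 genes of the TRIM28 corepressor complex, 5 were called (38.5%, where 18.6% of all genes were), 3 lower and 2 higher. Of the 3 lower, 1 is not reported here. CBX1, an HP1 protein that TRIM28 binds, fell from 118 ± 2.18 to 83.2 ± 2.66 CPM (log2 fold change -0.51, SE 0.0558, adjusted p = 0.0024 in edgeR), and its call held in all 6 edgeR fits with a library left out. HDAC2 fell (-0.24, adjusted p = 0.0274), and HDAC1 (0.22, adjusted p = 0.0387) and SUMO3 (0.22, adjusted p = 0.0445) rose in edgeR's quasi-likelihood test. SETDB1, the histone methyltransferase recruited by TRIM28, had a log2 fold change of -0.0013 with an SE of 0.0811, and CBX5 of 0.02 with an SE of 0.0750. The called genes thus went in both directions. Of the MAGE genes whose proteins bind TRIM28 or TRIM27, MAGEA3 and MAGEA6 were tested and not called, and MAGEA2 and MAGEL2 had no counts.

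TRIM proteins that carry other symbols were counted apart. Of 6 tested, 3 were called, where 18.6% of all genes were, and the difference was not tested. MID1 (TRIM18) fell from 49.6 ± 4.71 to 34.9 ± 3.14 CPM (log2 fold change -0.51, adjusted p = 0.0193 in edgeR). PML (TRIM19) fell from 29.9 ± 7.46 to 17.2 ± 0.365 CPM (-0.79, adjusted p = 0.0247 in edgeR). With a library left out, MID1 was called in 4 of 6 edgeR fits (adjusted p up to 0.0692) and PML in 2 of 6 (up to 0.0807). TRIML2 rose from 35.6 ± 1.22 to 65.3 ± 3.83 CPM (0.87, adjusted p = 0.00117 in edgeR) and was called in all 6 edgeR fits with a library left out. Of the 16 E1 and E2 enzymes that charge and carry ubiquitin for such ligases, 2 were called (12.5%, where 18.6% of all genes were). UBE2V1 (log2 fold change 0.42, adjusted p = 0.0244) and UBE2W (0.70, adjusted p = 0.0396) rose and none fell in edgeR. UBE2D2 and UBE2D3, the common partners of RING ligases, had log2 fold changes of -0.12 and -0.08. Over the lists of partners and related genes together, 16 of 62 tested were called (25.8%, where 18.6% of all genes were).

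Some members share sequence with other genes, so that a read from the shared part may not be assignable to one of them. Of the tested members, 8 shared at least 25% of their 75-base exon stretches with other genes, counted over all other genes. None of these 8 was called. Of all 46 members tested, 15.2% were called, so a set of 8 is too small to tell whether sharing bears on the calls. The most shared were TRIM74 with TRIM73 (85.3%) and TRIM34 with the readthrough gene TRIM6-TRIM34 (80.4%). TRIM16 shares 19.3% of its stretches with TRIM16L and 18.2% with AC005324.3, which runs over it on the same strand.

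In TRIM34 and TRIM16, the shPRMT6 libraries with the lowest member counts relative to depth were those with counts of the gene that overlaps it. TRIM34 had 789, 1445 and 954 counts in NC and 317, 654 and 979 in shPRMT6, and TRIM6-TRIM34 had 491 counts in shPRMT6 library 1 but 18 in NC library 2 and 0 in the other 4 libraries. Added together, TRIM34 and TRIM6-TRIM34 gave 14.1, 19.2 and 15.3 CPM in NC and 12.7, 10.6 and 14.4 CPM in shPRMT6, so the lowest library of TRIM34 alone (4.98 CPM) was not the lowest sum. TRIM16 had 1491, 2060 and 1301 counts in shPRMT6, and AC005324.3 had 403, 0 and 783 counts there and 0 in all NC libraries. TRIM16 alone overlapped between groups (26.8 ± 1.01 against 25.4 ± 7.33 CPM), whereas the sums did not (26.8 ± 1.02 against 31.3 ± 1.93 CPM). These sums were formed after the values were seen and were not tested. Whether the counts were made read by read or estimated from transcript coverage is not settled, and it bears on such single libraries.

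TRIM59 had 194 counts in shPRMT6 library 2, against 1299 to 2908 counts in the other libraries. In that library AC079594.2, which shares 14.5% of its exon bases on the same strand, had 239 counts, its highest. The sum of both was still 7.03 CPM there and at least 21 CPM elsewhere. SMC4, on the opposite strand, shares more of the exon bases of TRIM59 (19.8%). It had 9310 counts in that library and 9166 to 19820 counts over the 6 libraries. SMC4 was not called (log2 fold change -0.48, adjusted p = 0.0672 in edgeR), and reads from the bases it shares with TRIM59 may not be told apart. TRIM32, which lies inside ASTN2 on the opposite strand and shares no exon bases with it, had 447 counts in NC library 2 and 1370 to 3182 counts in the other 5 libraries. ASTN2 had 421 counts in NC library 2, within its range of 306 to 537 over the 6 libraries. TRIM34, TRIM59 and TRIM32 were the 3 members with over 100 counts in some library whose highest library was more than 3 times the lowest in CPM. None was called (adjusted p of 0.244, 0.442 and 0.626 in edgeR).

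**Figure D5:**
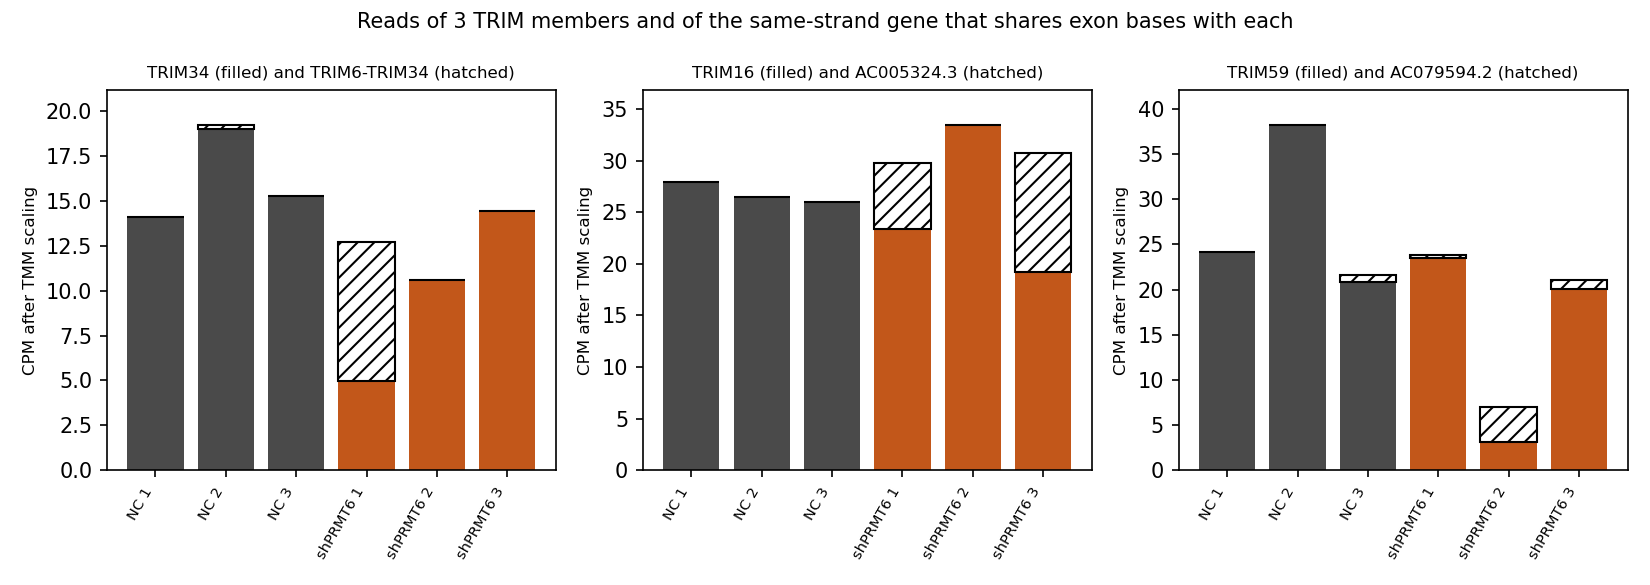
CPM after TMM scaling per library for TRIM34, TRIM16 and TRIM59 (filled, grey NC and orange shPRMT6) with the same-strand gene that shares exon bases stacked on top (hatched). The hatched part is large only in shPRMT6 library 1 (TRIM6-TRIM34 and AC005324.3), library 3 (AC005324.3) and library 2 (AC079594.2).

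The study lists 3 hairpins against PRMT6, and their antisense strands are shown with the seed, bases 2 to 8, in capitals, because a seed can pair with the 3′ UTR of genes other than the target. The antisense strand was taken as the reverse complement of each listed target. For U87 cells, the paper names shPRMT6 #2 and shPRMT6 #3 in its growth assay and shPRMT6 #2 in its RT-PCR. Its text names no use of shPRMT6 #1, and it does not say which hairpin was sequenced.
shPRMT6 #1: aTAAGGCAtctcaaactgggc
shPRMT6 #2: aAGATGCTcagaatgccggtg
shPRMT6 #3: aTCTCTCCtgaaacgtccgtg

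The complement of the seed of shPRMT6 #1 was found in the 3′ UTR of 11 tested members (23.9%, against 15.4% of 13119 tested genes with a 3′ UTR), of which 4 fell (TRIM25, TRIM22, TRIM56 and TRIM14) and TRIM13 rose, where 9.06% of all genes were called lower and 9.51% higher. For shPRMT6 #2 it was 7 members (15.2%, against 15.4%), of which TRIM25 and TRIM14 fell. For shPRMT6 #3 it was 11 members (23.9%, against 19.4%), of which TRIM56 fell and TRIM9 rose. TRIM28, which fell, held none of the 3 matches. The shares compared are of unlike sets. Those of members are of all 46 tested, and those of genes are of tested genes with a 3′ UTR of at least 50 bases. The shares called lower and higher are of all genes tested, not of those with a match. The sites of shPRMT6 #2 in the members called are shown with 10 bases on each side and the match in capitals, since both members held a pair of them.
TRIM25, position 782 of the 3′ UTR: tatcataagaAGCATCTtggcagagat
TRIM25, position 1888: gatgatcaaaAGCATCTtcattgattt
TRIM14, position 1196: cccccaggcaAGCATCTgacctgtccc
TRIM14, position 1565: attctgttaaAGCATCTtcataggtgc

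The 3′ UTRs searched differ in length, from 1215 bases in TRIM22 to 8387 in TRIM56 among the members called lower with a match, and the part of these matches in the fold changes was not tested. TRIM13, the member with 3 matches to the seed of shPRMT6 #1, was higher in shPRMT6.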

How the data were processed

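Bulk RNA-seq libraries of U87 cells, 3 NC and 3 shPRMT6, were compared. Groups came from the labels, and the numbers in the labels were taken as replicate numbers. The labels name a library kit that does not mark strand, and the strand setting is not given in the sources used here. For each library the authors deposited whole-number read counts per gene without normalization, and FPKM values (scaled to gene length and library size) that stand at 0.0001 where the count is 0. Small counts piled up at multiples of 4, and whether the counts are of single reads or were estimated from coverage could not be settled. They were tested as deposited, and the p-values assume read counts. The submitters' processing notes name HISAT2, HTSeq 0.13.5 and GRCh38 without further settings. The annotation release behind the table is not given in the sources used here. The proteome measured in the same study was not analysed here.

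Counts were tested with edgeR 4.0.16 in R 4.3.3 (filterByExpr, TMM scaling, quasi-likelihood test, Benjamini-Hochberg adjustment over the 18106 genes that passed). The scripts were tested on simulated data. CPM values are after TMM scaling (factors 0.9923 to 1.01), and errors are SD over 3 libraries. Replicates differed by more than counting error (chi-square per degree of freedom 52.2 to 85.7), so none was taken as a duplicate. Where a p comes from 3 against 3 libraries it measures only the spread between these samples, which may be technical in part. Gene positions, exon overlaps, 75-base stretches shared between genes and 3′ UTRs came from GENCODE 29, promoters from RefSeq (GRCh38.p14). The members, the lists and the tests were chosen with earlier results of these data known. The classes and partner lists came from textbook knowledge. The naming rule took the called members, then the 8 highest by FPKM, the PHD-bromodomain and NHL classes and, in partner lists, the called genes with the 3 smallest p. The called members are given with full statistics, and some of the others only in part. Other genes were named after their values were seen, and a few genes of the lists are not reported here by name. Alternatives were DESeq2 1.42.0, other scaling and filters, limma 3.58.1 on log2(FPKM + 1) or log2(FPKM + 0.1), a replicate block, other thresholds, and leaving out each library.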

Additional observations from a re-analysis of the deposited data

How the results depend on the processing

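The main fit called 7 of 46 members (5 lower, 2 higher), 16 of 62 partner genes and 3362 of 18106 genes. Against these, DESeq2 called 13 members (7 higher), 25 partner genes and 5782 genes. It kept all 7 and added TRIM2, TRIM23, TRIM37, TRIM5, TRIM55 and TRIM69. An adjusted p under 0.01 left 2 members (2 lower, 0 higher), 5 partner genes and 1320 genes, and the study's rule of fold and p left 1 member, 2 partner genes and 1072 genes. limma on log2(FPKM + 1) without a filter called 3 members (3 lower, 0 higher) and 10 partner genes, and the members' median log2 fold change was 0.034. Without scaling factors and with at least 1 count in any library, 1 member was called higher (10 partner genes in the latter), and with at least 10 counts in every library 4 were. Leaving out each library gave 2 to 7 members (2 to 4 lower, 0 to 3 higher), 5 to 12 partner genes and 1755 to 3183 genes. NC library 3, shPRMT6 library 2 or shPRMT6 library 3 left TRIM25 and TRIM28 alone. PRMT6 (log2 fold change -0.87) lost its call in limma without a filter (-0.47, adjusted p = 0.0578), at an adjusted p under 0.01 (-0.87) and without 3 of the libraries (fold changes from -1.0 to -0.73 over all 6).

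Deviations of same-numbered libraries from their group means showed no shared direction, with correlations of -0.0248, -0.0171 and -0.0301. These values cannot tell whether same-numbered samples were handled together, so pairing was not settled. With the replicate block, 3 members were called (2 lower, 1 higher), which were TRIM25, TRIM28 and TRIM2, with 7 partner genes, 1858 genes, and PRMT6 at -0.88 (adjusted p = 0.0803). TRIM33, not called in any setting, changed sign with the block (-0.076), in limma with log2(FPKM + 1) (-0.036 with and without the filter) or log2(FPKM + 0.1) (-0.065), and without NC library 1, shPRMT6 library 2 or shPRMT6 library 3 (-0.19, -0.13 and -0.25, against up to 0.34 without shPRMT6 library 1). TRIM66 changed sign without NC library 2 (0.076). The cause of these changes was not tested. Over the 19 members chosen by the naming rule, 248 values kept their direction and side of the threshold, 41 lost the call and 5 gained it. At 3 libraries a group, members at low level such as TRIM55 had wide errors.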

Other observations

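In the count columns, some small numbers were far more frequent than their neighbours. NC library 1 held 1240 genes at 4 counts, against 398 at 3 and 225 at 5, and 674 genes at 8 counts, against 243 at 7 and 168 at 9. The other 5 libraries had the same pattern, with 1279 to 1399 genes at 4 counts. The ratio of count to FPKM of a gene, scaled by library total, was nearly constant between libraries (median SD of 0.00697 on the log2 scale, genes with at least 200 counts in every library). Over all genes, 42.4% of the values from 1 to 16 counts were 4, 8, 12 or 16. Among the members, 15 of 33 such values were, in 9 members, of which 4 (TRIM7, TRIM31, TRIM55 and TRIM74) were tested. Single libraries far from their replicates at higher counts, in TRIM32, TRIM26 and TRIM59, are given with those members. Whether the counts were estimated from transcript coverage was not tested.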
